A study of Rattus norvegicus with 12 samples.

Results

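The genes described here build, bind or cut the extracellular matrix: collagens, laminins, integrins, matrix metalloproteinases (MMPs), their tissue inhibitors (TIMPs), ADAMTS proteases and thrombospondins, with Fn1, Sparc, Tagln, Bgn, Dcn and Lum. Members were the probes of an Illumina RatRef-12 bead array whose platform symbol carried one of these names. They came to 95 of 13337 named genes, on 96 of the array's 22523 probes, 13793 of which had a symbol. Acta2, a contractile actin that the rule also named, was on no named probe. The rule also took genes that only share a name. Itgb1bp1, Itgb1bp2 and Itgb3bp encode binding partners of integrins, Itgbl1 is an integrin beta-like gene, and Adamtsl4 and Adamtsl5 encode ADAMTS-like proteins without a protease domain.

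RNA came from hippocampal cultures of Sprague Dawley rats of embryonic day 18.5, kept for 12 days over a glial feeder layer, with 3 coverslips pooled per sample. All cultures were silenced for 3 h with TTX (100 nM), CNQX (40 µM) and D-APV (50 µM), which stop action potentials and glutamate receptors. Activity cultures were then freed from these drugs and given bicuculline (BiC, 50 µM) with 4-aminopyridine (4-AP, 500 µM) for 5 min, which releases synaptic firing. Block cultures stayed in the inhibitors. Each was run with actinomycin D (ActD, 25 µM), which inhibits transcription, or with its solvent DMSO. The groups were Activity+ActD, Activity, Block+ActD and Block, each harvested at 5, 30 and 60 min, and every combination was 1 array, so no group held replicates. Cultures over a feeder layer hold glia and other cells beside the labelled hippocampal neurons, and their RNA was measured together.

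Matrix proteins are secreted or held at the cell surface, where collagens and fibronectin form fibres, and laminins and network collagens form basement membranes. Integrins are the paired receptors through which cells grip this matrix. MMPs and ADAMTS proteases cut matrix proteins, and TIMPs hold the MMPs in check. In the brain, fibrous collagens come mostly from meningeal and vascular cells, while neurons and glia make a matrix rich in proteoglycans, and TIMP1 and MMPs are released by glia and neurons after injury or strong firing.

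Promoter sequences are given first for Col6a1, Mmp3, Mmp13 and Timp1. Several MMP genes are known to be induced through AP-1, a dimer of Fos and Jun proteins that binds the motif TGANTCA. The motif was searched on both strands of RefSeq promoters of the rat build GRCr8, from 250 bases before to 50 bases after each gene's start; it reads alike on both strands. Capitals mark the match. Col6a1 and Mmp3 had among the largest differences between harvests, Mmp13 was not called by harvest, and Timp1 had the lowest p. Timp1 had no exact match in this window, though its sequence holds tgagtaa, which differs from the motif at 1 base. Near matches were not counted for any gene.
Col6a1 (chr20:11905440-11905739, plus strand): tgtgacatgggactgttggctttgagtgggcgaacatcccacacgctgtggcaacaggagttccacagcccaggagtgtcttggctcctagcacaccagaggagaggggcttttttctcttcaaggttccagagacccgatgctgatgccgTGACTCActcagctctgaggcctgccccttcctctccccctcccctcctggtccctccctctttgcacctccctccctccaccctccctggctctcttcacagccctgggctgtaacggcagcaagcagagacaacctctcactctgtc
Mmp3 (chr8:12925031-12925330, plus strand): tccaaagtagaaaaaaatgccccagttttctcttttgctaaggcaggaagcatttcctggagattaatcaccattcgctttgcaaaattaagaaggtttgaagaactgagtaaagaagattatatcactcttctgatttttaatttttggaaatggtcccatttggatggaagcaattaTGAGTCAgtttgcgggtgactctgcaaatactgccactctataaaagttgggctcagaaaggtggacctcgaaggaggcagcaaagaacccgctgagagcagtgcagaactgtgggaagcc
Mmp13 (chr8:12782579-12782878, plus strand): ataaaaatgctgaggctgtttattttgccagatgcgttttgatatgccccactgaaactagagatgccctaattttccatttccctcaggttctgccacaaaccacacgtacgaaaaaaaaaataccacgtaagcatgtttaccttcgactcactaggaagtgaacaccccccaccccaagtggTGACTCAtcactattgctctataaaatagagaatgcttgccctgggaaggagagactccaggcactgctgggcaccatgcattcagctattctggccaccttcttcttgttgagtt
Timp1 (chrX:3771073-3771372, minus strand): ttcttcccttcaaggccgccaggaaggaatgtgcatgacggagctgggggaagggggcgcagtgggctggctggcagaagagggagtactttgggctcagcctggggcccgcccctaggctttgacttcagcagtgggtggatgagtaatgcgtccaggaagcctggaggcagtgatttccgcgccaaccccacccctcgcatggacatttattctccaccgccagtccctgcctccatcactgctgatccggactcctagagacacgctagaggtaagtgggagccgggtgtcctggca
The match began 99 bases before the start of Col6a1, 71 before Mmp3 and 66 before Mmp13. Of 33469 rat promoters of this length, 2453 (7.33%) held the motif. The members had 71 promoters in the table, 8 of them with the motif (11.3%), and 7 of these 8 were MMP genes (Mmp1, Mmp3, Mmp7, Mmp10, Mmp12, Mmp13 and Mmp20), all on chromosome 8. That was 7 of 14 MMP promoters (50.0%), against 1 of 57 promoters of the other members (1.75%). Of the 7 MMP genes, the arrays measured only Mmp3 and Mmp13 well enough for a test. The genes lower at the later harvests held the motif in 2 of their 15 listed promoters (13.3%), and the members tested and not called in 1 of 19 (5.26%). The former were Col6a1 and Mmp3 and the latter was Mmp13, so the sequences shown are not typical of either set.

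A probe was called detected on an array at a detection p under 0.01, and was tested when detected on at least 2 of the 12 arrays. On that rule 54 member probes (53 genes) were tested, 29 of them detected on all 12 arrays and 25 on 2 to 11. Another 39 were detected on no array and 3 on 1 array (Itga1, Itgam and Mmp19). The tested members were 14 of 25 collagens, 3 of 5 laminins, 11 of 21 integrin-named genes, 8 of 20 MMPs, all 3 TIMPs, 8 of 14 ADAMTS probes, 1 of 2 thrombospondins and all 6 single genes. Among those not tested were the collagens Col2a1 of cartilage and Col4a3 of basement membranes, the leukocyte integrins Itgal, Itgam and Itgad, and the MMPs Mmp7, Mmp8, Mmp10 and Mmp12. Values are normalized log2 intensities, which compare arrays for 1 probe and do not rank different probes. Total intensity ranged between 10858233 and 13824776 over the 12 arrays, with 9751 to 11032 probes detected and 35 to 48 of the members. Precision was limited by how few arrays there were.

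The mean of 30 and 60 min was set against 5 min, with treatment in the same fit (limma with a variance trend, Benjamini-Hochberg adjustment over 11792 probes, threshold 0.05). At the later harvests 22 of 54 member probes were lower and 5 were higher, while 27 were not called. Over all probes tested 49.3% were called, 23.4% lower and 25.9% higher, so the share of members called (50.0%) lay near the background while the split between directions did not. The median member difference was -0.19 on the log2 scale, against -0.01 over all probes. Members that fell by more than 1 log2 unit numbered 12 of 54 (22.2%), against 3.14% of all probes. Of the 14 collagens tested 11 were lower and 0 were higher, with a median of -0.87. The counts include Col3a1 and Mmp3, which were tested only because the 5 min arrays detected them. They also include Col6a1 and Col5a3, which 1 later array each detected, too few for a test without the 5 min arrays. The 4 treatments stood in for replicates here, and all arrays of a harvest may share a preparation or handling. Harvest and handling cannot be told apart.

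**Figure D1:**
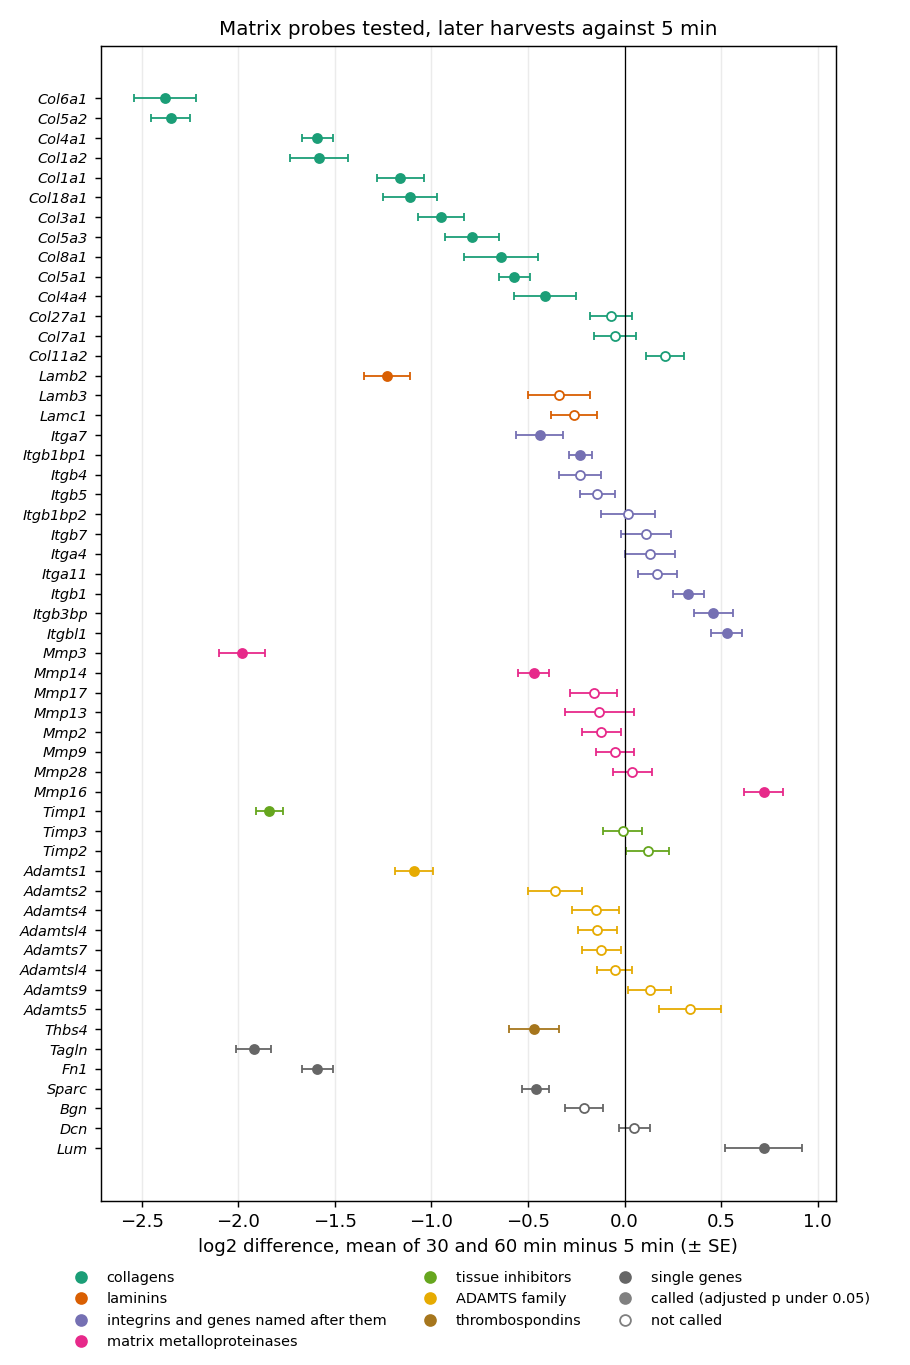
Log2 difference of the later harvests (mean of 30 and 60 min) minus 5 min, with its SE, for each of the 54 member probes tested, by family; filled points had an adjusted p under 0.05. Collagens lie mostly left of 0, down to -2.38 for Col6a1, and Lum and Mmp16 lie farthest right at 0.72.

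The collagens that fell included both fibrous and network forming chains. Col6a1, a chain of the beaded collagen VI filaments around cells, had 4.47, 4.89 and 5.25 (lowest, median and highest of the 8 arrays) at 30 and 60 min. At 5 min it had 7.30 in Activity+ActD, 7.50 in Activity, 7.50 in Block+ActD and 6.67 in Block. Every 5 min array lay above every later array, and the fitted difference was -2.38 ± 0.16 (SE). Only 1 later array detected Col6a1, Block at 30 min, so most of its later values lay near background. It was tested through the 5 min arrays, which favoured a lower value later, and no p is given.

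Col5a2, a collagen V chain that sets the width of collagen fibres, was detected on all arrays. Its later values were 6.68, 6.92 and 7.34 (lowest, median and highest), and its values at 5 min were 9.32 in Activity+ActD, 9.29 in Activity, 9.40 in Block+ActD and 9.26 in Block. The groups did not overlap and the 5 min arrays were nearly alike. Col5a2 fell by 2.35 ± 0.10 log2 units (5.09-fold, adjusted p = 5.44e-10). The other collagen V chains fell less, Col5a1 by 0.57 ± 0.08 and Col5a3 by 0.79 ± 0.14. Col5a3 was detected on 1 later array and needed the 5 min arrays to be tested.

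Col4a1, a main chain of the basement membrane network, had 6.99, 7.16 and 7.28 (lowest, median and highest) at the later harvests. At 5 min it had 8.90 in Activity+ActD, 8.63 in Activity, 8.84 in Block+ActD and 8.59 in Block. The groups lay well apart, with a difference of -1.59 ± 0.08 (adjusted p = 6.18e-09). Its means were 8.74 at 5 min, 7.15 at 30 min and 7.15 at 60 min, so the whole difference was present by 30 min. Lamb2, a laminin chain of vascular and synaptic basement membranes, had 6.93, 7.11 and 7.40 (lowest, median and highest) later. Its 5 min arrays read 8.67 in Activity+ActD, 8.49 in Activity, 8.55 in Block+ActD and 7.85 in Block. The Block array was the lowest of the 4 but still above every later array (difference -1.23 ± 0.12, adjusted p = 2.09e-06). Lamb3 and Lamc1, the other laminin chains tested, were not called (-0.34 and -0.26).

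Collagen I forms the thick fibres of connective tissue from the chains of Col1a1 and Col1a2. Col1a2 had 9.26 in Activity+ActD, 9.54 in Activity, 9.23 in Block+ActD and 9.10 in Block at 5 min. At 30 min the same treatments had 8.25, 8.14, 8.61 and 8.96, and at 60 min 6.92, 7.27, 6.81 and 6.70. The 5 min arrays were the highest and the 60 min arrays the lowest in each treatment, with the 30 min arrays between them. The difference of the later harvests from 5 min was -1.58 ± 0.15 (adjusted p = 2.28e-06). Col1a1 had a difference of -1.16 ± 0.12 (adjusted p = 3.40e-06), with values from 4.54 to 5.38 later and from 5.94 to 6.21 at 5 min, and 2 of the 8 later arrays detected it. Col3a1, the fibrous collagen III, was detected on 3 of the 4 arrays of 5 min and on no later array. A probe undetected on every array of a group has only a bound there, set by the dimmest detected probes of each array, and Col3a1 was at least 1.25-fold lower. Having been tested through the 5 min arrays alone, it had to be lower later, and no p is given. Col18a1, whose protein is the source of endostatin, fell by 1.11 ± 0.14 log2 units, though its highest later array (6.16) reached the lowest of 5 min (6.13). Col8a1 and Col4a4 fell less, with differences of -0.64 and -0.41, and overlapped between harvests. The collagens not called were Col7a1, Col11a2 and Col27a1 (-0.05, 0.21 and -0.07).

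**Figure D2:**
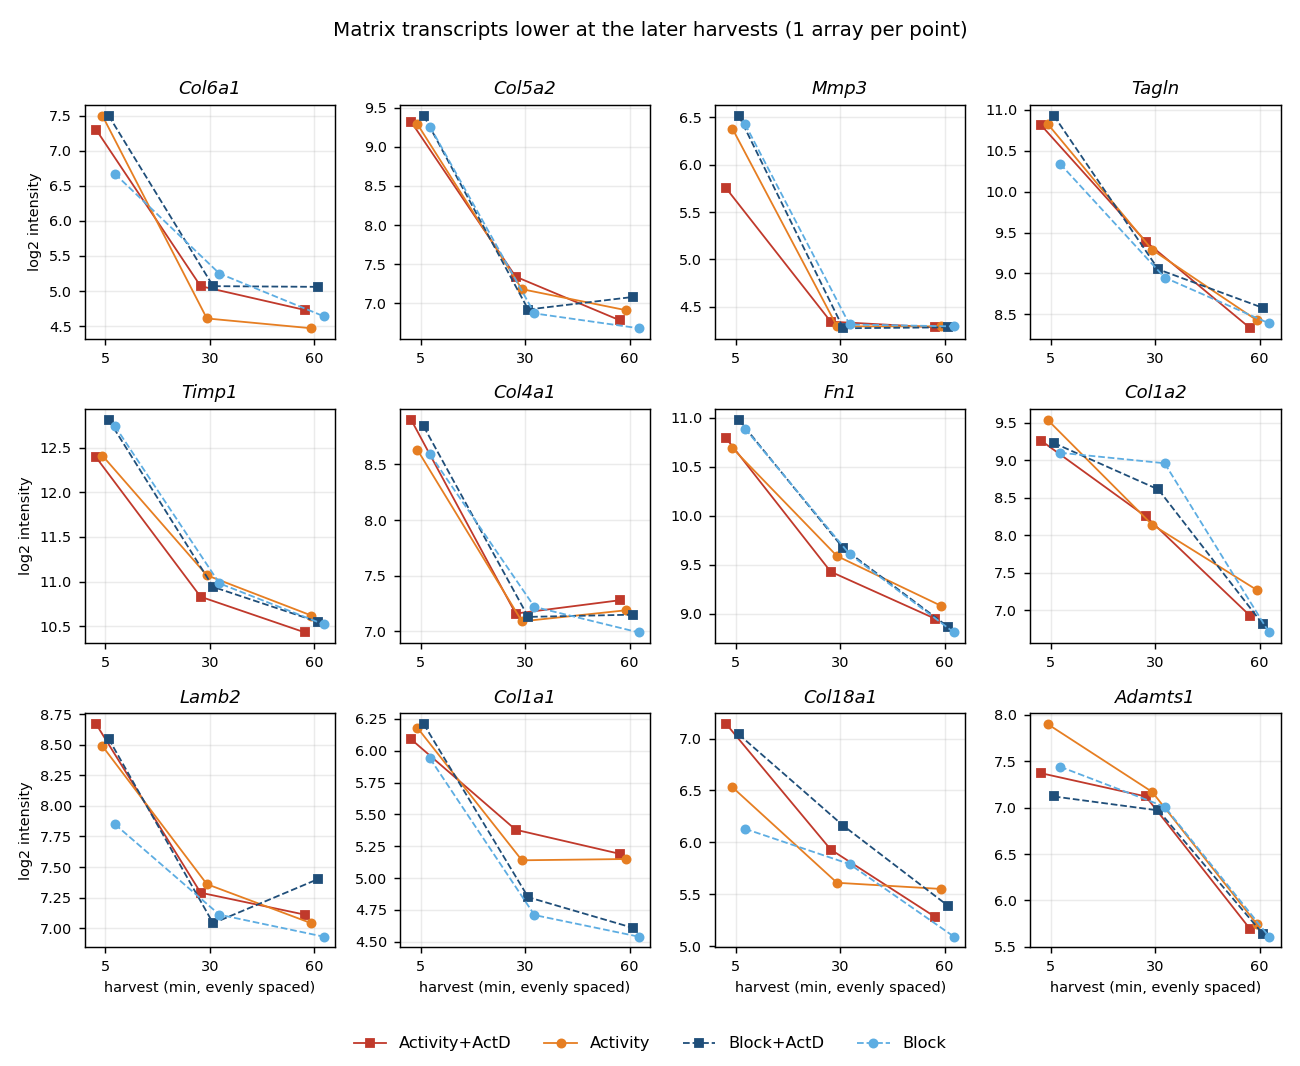
Normalized log2 intensity of the 12 members with the largest called differences by harvest, at 5, 30 and 60 min; each point is 1 array, red and orange are Activity with and without ActD, dark and light blue are Block with and without ActD. All 4 lines of a gene lie lower at both later harvests than at 5 min, level between 30 and 60 min in Mmp3 and Col4a1 and lower again at 60 min in Col1a2, Fn1 and Timp1; Col1a2 and Adamts1 differ most between 30 and 60 min.

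Transcripts of other matrix and contractile proteins were lower at the later harvests too. Fn1, the fibronectin that links cells to collagen, had 8.81, 9.26 and 9.67 (lowest, median and highest) later. At 5 min its values were 10.79 in Activity+ActD, 10.69 in Activity, 10.98 in Block+ActD and 10.89 in Block. No later array reached the 5 min arrays, and Fn1 fell by 1.59 ± 0.08 (3.00-fold, adjusted p = 2.38e-09). Tagln, a contractile protein of smooth muscle and activated fibroblasts, had 8.33, 8.77 and 9.39 (lowest, median and highest) later. Its arrays of 5 min read 10.81 in Activity+ActD, 10.83 in Activity, 10.93 in Block+ActD and 10.34 in Block. These groups did not overlap either (difference -1.92 ± 0.09, adjusted p = 2.32e-09). Sparc, a collagen-binding protein of glia and vessels, fell by 0.46 ± 0.07 (adjusted p = 9.41e-05) without overlap. Thbs4, a thrombospondin that astrocytes and connective tissue secrete, fell by 0.47 ± 0.13 with overlap.

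Of the small proteoglycans, decorin (Dcn), which coats collagen fibres, ranged from 9.20 to 9.84 later and from 9.22 to 9.71 at 5 min, with a difference of 0.05 (95% interval -0.12 to 0.22, adjusted p = 0.633). Bgn, its relative biglycan, had -0.21 (adjusted p = 0.0853), and was called without a variance trend in the fit (adjusted p = 0.0444). Lum, lumican, was higher later (0.72 ± 0.20, adjusted p = 0.00911), and its low values at 5 min came from the arrays with ActD described further on. The difference was 0.51 without Block+ActD of 5 min (adjusted p = 0.0658), 0.51 without Activity+ActD of 5 min (adjusted p = 0.0702) and 0.09 in the treatments without ActD alone (adjusted p = 0.72).

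Among the proteases, Mmp3 (stromelysin 1, which cuts many matrix proteins and activates other MMPs) was detected on all 4 arrays of 5 min and on none of the 8 later ones. Its later values were 4.27 to 4.34, the background level. At 5 min it had 5.75 in Activity+ActD, 6.38 in Activity, 6.52 in Block+ActD and 6.43 in Block. The Activity+ActD array was the lowest of the 4, and all were far above the later arrays, so Mmp3 was at least 2.11-fold lower at the later harvests, a direction that its detection at 5 min alone fixed. Mmp14, a membrane-bound MMP that activates Mmp2, fell by 0.47 ± 0.08 (adjusted p = 0.000177), with 10.31 to 10.68 on the later arrays and 10.80 to 11.09 on those of 5 min. Mmp16, another membrane-bound MMP, was higher (0.72 ± 0.10, adjusted p = 5.06e-05), with 8.20 to 8.59 later and 7.35 to 8.10 at 5 min. The gelatinases Mmp2 and Mmp9 were not called (-0.12 and -0.05), nor were the collagenase Mmp13 (-0.13) and Mmp17 and Mmp28 (-0.16 and 0.04).

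Of the TIMPs, 1 of 3 was called. Timp1, the secreted inhibitor that glia release on injury, had 10.43, 10.72 and 11.07 (lowest, median and highest) later. At 5 min it had 12.39 in Activity+ActD, 12.41 in Activity, 12.81 in Block+ActD and 12.74 in Block. The gap between the harvests was wider than the spread within either, and Timp1 fell by 1.84 ± 0.07 (3.59-fold, adjusted p = 2.32e-10). Timp2, a constitutive inhibitor that also takes part in the activation of Mmp2 by Mmp14, had a difference of 0.12 (95% interval -0.12 to 0.36). Timp3, which binds to the matrix itself, had -0.01 (-0.23 to 0.21). Neither was called. Of the ADAMTS probes only Adamts1, a protease that cuts large proteoglycans, was called, with 5.61, 6.36 and 7.17 (lowest, median and highest) later. Its values at 5 min were 7.37 in Activity+ActD, 7.90 in Activity, 7.12 in Block+ActD and 7.44 in Block, which overlapped the later ones, and the difference was -1.09 ± 0.10 (adjusted p = 2.10e-06). The other 7 ADAMTS probes lay between -0.36 (Adamts2) and 0.34 (Adamts5) and were not called, both probes of Adamtsl4 among them.

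The integrins showed small differences. Itgb1, the beta chain shared by most matrix-binding integrins, was higher later by 0.33 ± 0.08 (adjusted p = 0.00415), with 8.79 to 9.20 later and 8.31 to 8.95 at 5 min. Itga7, a laminin-binding alpha chain of muscle and neurons, fell by 0.44 ± 0.12. Of the genes that only share the name, Itgbl1 (0.53 ± 0.08) and Itgb3bp (0.46 ± 0.10) were higher and Itgb1bp1 fell by 0.23 ± 0.06. Itga4, Itga11, Itgb4, Itgb5, Itgb7 and Itgb1bp2 were not called, with differences from -0.23 to 0.17. Integrin-named probes as a family had 3 higher and 2 lower of 11 tested (45.5%, against 49.3% of all probes) and a median of 0.11.

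Over the tested members, 16 had every 5 min array above every later array and 2 (Mmp16 and Itgbl1) had every 5 min array below. Over all probes tested these shares were 12.4% and 12.9%. Detection at 5 min alone admitted 3 members to the test (Col3a1, Mmp3 and Lamc1, the first pair called lower), and detection at the later harvests alone admitted 5 (Adamts5, Itga4, Itga11, Itgb7 and Mmp28, 0 of them called). The direction of such members was set by the rule. Col6a1 and Col5a3 (called lower) and Itgb4 (not called) were detected on 1 later array each and also needed the 5 min arrays. Adamts9 and Col7a1 were detected on 1 array of 5 min each, needed the later arrays and were not called. The rule favoured a direction in these as well. Among the 29 members detected on all 12 arrays, 16 were lower and 4 higher, with a median of -0.44. Over the 8500 probes with such detection 55.5% were called, 28.0% lower and 27.5% higher, and the median was -0.02.

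Markers of other cells moved with harvest, a comparison in which 23.4% of all probes were lower and 25.9% higher. The microglia list, 10 of 12 genes on the array, had a summed intensity of 85.6 to 129 at the later harvests and of 949 to 1550 at 5 min, and all 7 markers tested were lower (Aif1 by 4.72, Cd14 by 1.73). Later values of this list lay near background, which limits the size of these differences. Any marker detected at 5 min alone had its direction set by the detection rule. C1qc and Ptprc were detected on no array. The list chosen for fibroblasts and mural cells summed to 11300 to 15500 later and to 18600 to 21800 at 5 min. Of 6 tested, 4 were lower (S100a4, Prrx1, Vim and Cnn1), Pdgfra was higher, and Des, Rgs5 and Tcf21 were detected on no array. Whether other cells of these cultures also expressed genes of this list, such as Vim and Pdgfra, was not tested. Neuronal markers summed to 49600 to 63900 later and to 39100 to 48500 at 5 min, and 7 of 9 were higher, among them Syt1 and Snap25. The sums of astrocyte markers (45200 to 52600 later, 47900 to 54400 at 5 min) and oligodendrocyte lineage markers (13500 to 16000 later, 14500 to 15700 at 5 min) overlapped. Of 7 astrocyte markers tested 3 were called higher and 2 lower. Of 6 oligodendrocyte lineage markers tested 2 were called lower and 0 higher, with a median difference of -0.25. Of 7 endothelial markers, Vwf, Tek and Cdh5 were detected on no array, and the list summed to 69.1 to 93.3 later and to 78.6 to 107 at 5 min. In pooled RNA of this kind, fewer cells of a type and less RNA per cell cannot be told apart. The part of these markers in the matrix differences was not tested.

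The harvest pattern was next fitted in the treatments with ActD and in those without ActD alone, on separate arrays. With ActD 21 of 54 members were lower at the later harvests, against 23.2% of all probes. Without ActD 20 were lower, against 15.2%, and 18 were lower in both, against 13.0%. Col5a2 had differences of -2.33 with ActD and -2.37 without. Fn1 had -1.66 with and -1.52 without ActD, Timp1 -1.91 with and -1.78 without, and Tagln -2.03 with and -1.82 without. The difference had the same sign in both for 44 of 54 members and for 9095 of 11792 probes.

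**Figure D3:**
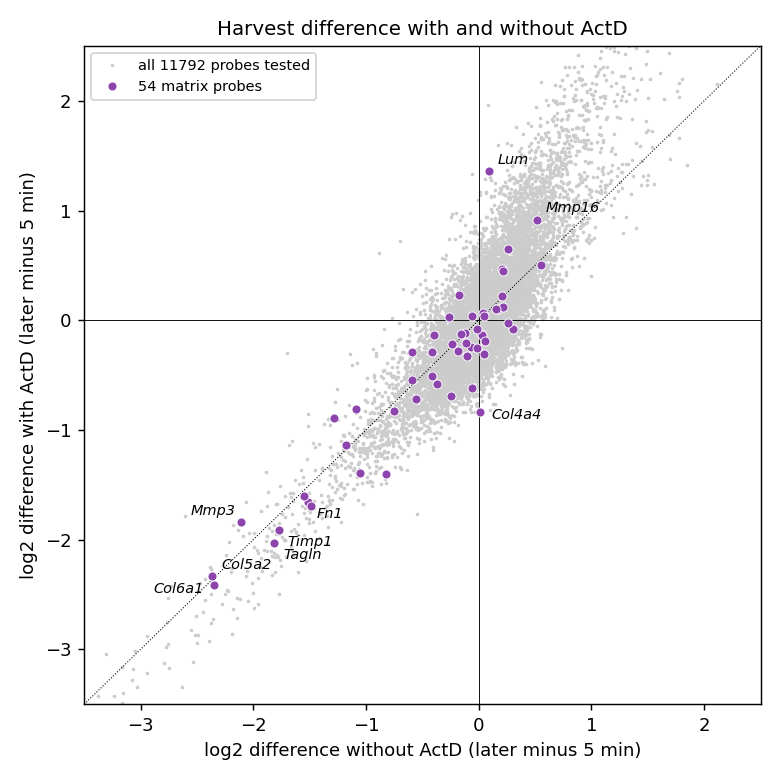
Log2 difference of the later harvests minus 5 min with ActD (vertical axis) against the same without ActD (horizontal axis), for all 11792 probes tested (grey) and the 54 member probes (purple); the dotted line marks equal differences, and 39 probes lie outside the axes. The members that fell most lie close to the line, while Lum lies far above it and Col4a4 below it.

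The difference between these differences was tested in a fit with a harvest by ActD term. It was called for 2 of 54 members (3.7%), against 9.3% of all probes. At an unadjusted p under 0.05 there were 6 of 54 members, against 2909 of all 11792 probes. Lum had 4.87 in Activity+ActD and 4.84 in Block+ActD at 5 min, and 5.85 in Activity and 6.29 in Block. On the arrays with ActD at 5 min Lum was not detected, and on all 8 later arrays it lay between 5.77 and 6.60. The low values were confined to these 2 arrays of the 12, and the term was 1.27 ± 0.21 (adjusted p = 0.00123). With ActD, Lum was at least 1.83-fold higher at the later harvests than at 5 min, and the term rests in part on its undetected values there. Col4a4, a minor basement membrane collagen, had 5.75 in Activity+ActD and 6.07 in Block+ActD at 5 min, and 5.23 in Activity and 5.25 in Block. It was highest on the 2 arrays where Lum was lowest (term -0.85 ± 0.22, adjusted p = 0.0238). The Col4a4 call was lost without Block (-0.82), Block+ActD (-0.68) or Activity (-0.88) of 5 min, or Activity of 60 min (-0.79). The effect of ActD over all harvests was called for 0 members and 0.0% of all probes. At an unadjusted p under 0.05 there were 9 of 54 members, against 2167 of all 11792 probes, so the members did not stand out. The lowest p were those of Adamtsl4 (0.36), Dcn (-0.28), Timp3 (-0.34), Itgb1 (-0.27) and Col18a1 (0.37). Without the Block+ActD array of 30 min, Dcn (-0.34, adjusted p = 0.0173) and Timp3 (-0.38, adjusted p = 0.0485) were called, with 604 probes in all.

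**Figure D4:**
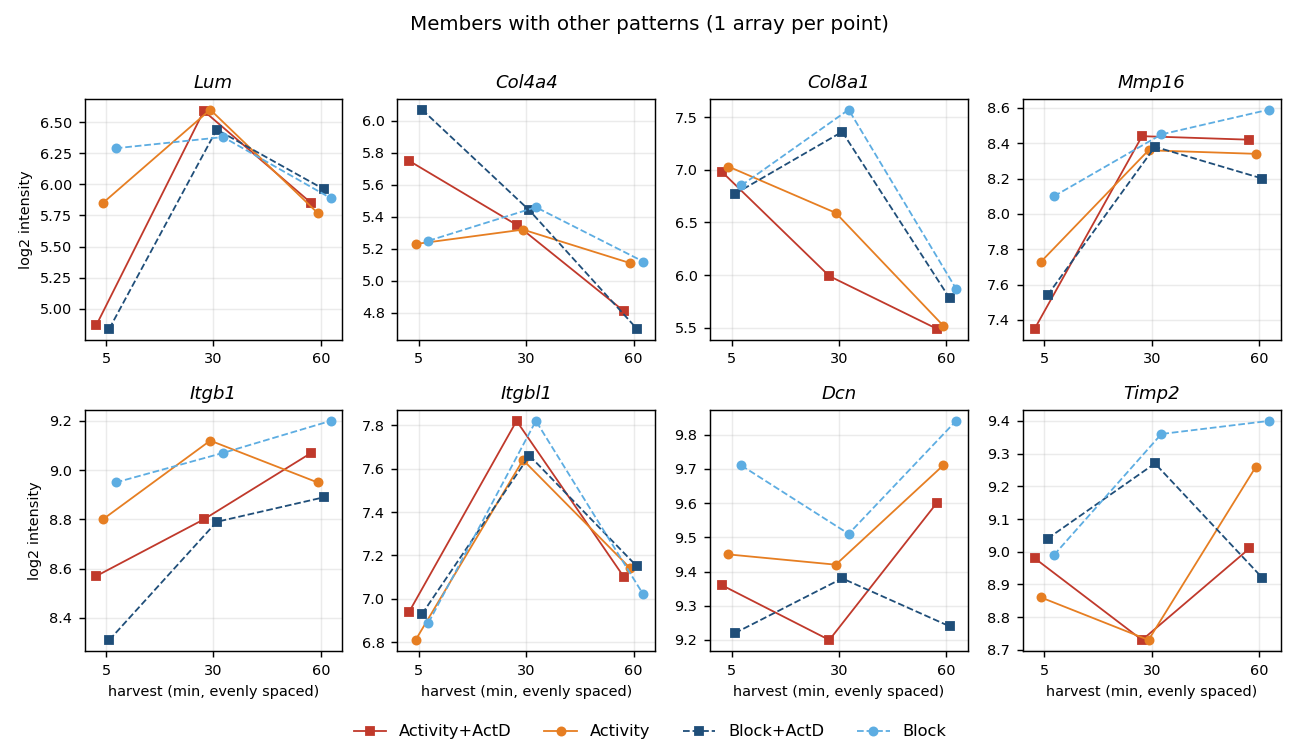
Normalized log2 intensity at 5, 30 and 60 min of 8 members with other patterns, drawn as 1 array per point; red and orange are Activity with and without ActD, dark and light blue are Block with and without ActD. Lum is low on both ActD arrays of 5 min (4.84 and 4.87), Col8a1 at 30 min is lower in both Activity arrays than in both Block arrays, Itgbl1 peaks at 30 min, and Dcn has no order by harvest.

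Between the later harvests 7 of 54 members were lower at 60 than at 30 min and 0 higher, against 6.47% of all probes called and 3.58% lower. Adamts1 lay between 5.61 and 5.75 at 60 min, against 6.97 to 7.17 at 30 min, a difference of -1.4 ± 0.12 (adjusted p = 1.25e-05). Col1a2 fell by 1.57 ± 0.17 (adjusted p = 0.000101) and Col8a1 by 1.21 ± 0.22 (adjusted p = 0.00414). Tagln (-0.74), Fn1 (-0.65) and Timp1 (-0.43) were lower again at 60 min after their difference from 5 min. Itgbl1 had 7.02 to 7.15 at 60 min, against 7.64 to 7.82 at 30 min (difference -0.63 ± 0.10), with 6.81 to 6.94 at 5 min, so it was highest at 30 min in every treatment. Col4a1 and Sparc were not called between 60 and 30 min.

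Synaptic activity, the study's question, gave 0 called members. Activity against Block was called for 0.0% of all probes with ActD, for 0.0% without ActD and for 0.0% in the interaction of both (limma, with the 3 harvests in place of replicates). At an unadjusted p under 0.05 there were 2 members with ActD, 5 without and 2 in the interaction, among 338, 884 and 755 probes. With ActD the lowest p were those of Adamts9 (0.43 ± 0.15), a protease of proteoglycans, Timp1 (-0.22), Col1a1 (0.33), Col5a3 (0.40) and Mmp2 (-0.27). Without ActD they were those of Col1a1 (0.43 ± 0.15), Adamtsl4 (0.35), Tagln (0.29), Mmp2 (0.29) and Lamb2 (0.34). Mmp2 had opposite signs with and without ActD (interaction -0.57 ± 0.19, adjusted p = 0.705). Members spanned -0.48 to 0.43 with ActD and -0.39 to 0.43 without, so no member reached a 2-fold mean effect. Simulated arrays of 11792 probes gave each change the same size at all 3 harvests. The test for the activity effect without ActD then recovered 84.0% of probes changed by 1 log2 unit and 100.0% of those changed by 2. In it 100 probes were changed at each size, and noise was drawn separately for each probe. Fewer changed probes, noise shared between probes and a change at 1 harvest alone were not simulated. The recovery of a few changed members was therefore not measured.

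The rule of the study's methods sets single arrays against each other. A probe was co-regulated when its z-fold, the difference between Activity and Block in z-scored log2 intensity divided by its SD over probes, was at least 1.4 and had one sign in both ActD states. This has no replicate check. Of 35 members detected at p under 0.1 on all 12 arrays, 1 was co-regulated at 5 min, against 0.627% of 10040 probes. It was Timp1, with a z-fold of -2.97 with ActD and -1.71 without. The z-fold was taken on intensities scaled to equal totals, not on the normalized log2 values that are given beside it here. On the normalized values Timp1 was lower in Activity too (12.39 and 12.41, against 12.81 and 12.74 in Block). With z-folds taken on them, 0 members were co-regulated at 5 min. Adamts1 had z-folds of 1.4 with ActD and 2.02 without on equal totals, and missed the threshold before rounding. At 30 min 5 members were co-regulated, against 3.59% of probes. Col8a1, a collagen VIII chain of vessel walls, had 5.99 in Activity+ActD and 6.59 in Activity, against 7.36 in Block+ActD and 7.57 in Block, the lowest z-folds of the members (-4.96 and -4.38). Timp2 (-2.39 and -3.21) and Col1a2 (-1.54 and -4.15) were lower too, and Adamts9 (1.92 and 1.65) and Tagln (1.63 and 1.66) higher. At 60 min only Lamb3 was (1.46 and 1.46), against 0.329% of probes. None of these 7 genes was co-regulated at more than 1 harvest.

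Other matrix genes were described from a list of 95, of which 77 were on the array and 67 genes (72 probes) were tested. By harvest 30 probes were lower and 18 higher (66.7% called), against 49.3% of all probes called, 23.4% lower and 25.9% higher. The largest differences were those of Mgp, a matrix protein that inhibits calcification (-2.55 ± 0.16), the hyaluronan receptor Cd44 (-2.43 ± 0.09), the matricellular growth regulators Ccn2 (-2.39 ± 0.13) and Ccn1 (-2.19 ± 0.09), and osteopontin, Spp1. Spp1 was detected on the 4 arrays of 5 min alone and was at least 2.53-fold lower later, a direction fixed by that detection, as for Ecm1 and Has2. Collagen processing genes had 7 lower and 2 higher of 10 probes, among them the collagen chaperone Serpinh1 (-0.57) and the crosslinking oxidase Loxl1 (-1.07 and -1.03 on its probes). Plasminogen system and growth factor genes had 5 lower and 1 higher of 9, with the protease Plat at -1.30. Brain proteoglycans and link proteins had 6 lower and 5 higher of 18, with the proteoglycan Vcan at 1.70 ± 0.13. Basement membrane and glycoprotein genes had 5 lower and 7 higher of 19, with Reln, the reelin that guides neurons, at 1.07 and Tnr, a tenascin of perineuronal nets, at 1.0. Integrin adaptors had 7 lower and 3 higher of 16, with the actin crosslinker Flna at -1.12 and the focal adhesion kinase Ptk2 at 0.84.

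Between 60 and 30 min 9 of the 72 probes of this list were lower and 2 higher (15.3% called), against 3.58% of all probes lower and 2.89% higher. They were led by Mgp (-1.55), Ogn (-1.52), Postn (-1.25), Cd44 (-0.83) and Lox (-0.81). Ogn and Postn are a small proteoglycan and a matricellular protein of connective tissue. In the harvest by ActD term 9 were higher and 1 lower (13.9% called), against 7.56% of all probes higher and 1.75% lower. Postn (0.98), Ogn (0.78), Tnr (0.99) and the adaptor Fermt2 (0.77) had the sign of Lum, and the brain proteoglycan Bcan (-1.01) that of Col4a4. For activity and for ActD over all harvests 0 of the 72 probes were called.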

How the data were processed

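RNA was measured on 12 Illumina RatRef-12 arrays, 1 per combination of stimulus, ActD and harvest. All carried replicate number 3 in the labels, and arrays of other replicates were not analysed here. The deposited intensity values are mean bead signals that the authors took from BeadStudio, neither scaled nor background-corrected. The authors' software also gave each probe a deposited detection p-value, which sets its signal against the negative controls of the array. The software's version is not given in the sources used here.

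Probes were named by the platform's symbols. limma's neqc (limma 3.58.1 in R 4.3.3) estimated background by normexp through the detection p-values, then applied quantile normalization and log2 with an offset of 16. The 11792 probes under a detection p of 0.01 on at least 2 arrays were tested in limma (lmFit, then eBayes with a trend in the variance), and p-values were adjusted by Benjamini-Hochberg over all of them, with a threshold of 0.05. The fit held treatment and harvest (6 residual degrees of freedom), and for the harvest by ActD term a further column (5). Harvests stood in for replicates of the treatments, and treatments for replicates of the harvests. The p-values therefore measure the spread between these arrays, which may be technical. The test was checked on simulated data.

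The z-fold followed the study's methods: scaling to equal totals, a detection p under 0.1 on all 12 arrays (10040 probes), log2 and z-scoring per array. The methods name no log step, so that step was a choice made here. Summed marker levels are background-corrected, normalized linear intensities. No 2 arrays held identical values (correlations 0.9586 to 0.9971).

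The members and the lists of pathway genes and markers were chosen with earlier results of these data known. The named genes were, among tested members, the 12 largest called differences of each comparison, or the 5 lowest p where fewer than 5 were called; the brightest probe of each family; the single genes and TIMPs; and any gene co-regulated at 5 min. Of the pathway genes the 5 largest called differences were named. Other members were named after their values were seen. The alternatives were other scalings, detection filters, no variance trend, each array left out, and the treatments with and without ActD alone.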

Additional observations from a re-analysis of the deposited data

Results flagged for a closer look

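Lum and Col4a4 were the members whose difference between the later harvests and 5 min itself differed between cultures with and without ActD, by the harvest by ActD term of limma's fit (Benjamini-Hochberg adjustment over all probes). For Lum the term was 1.27 ± 0.21 (adjusted p = 0.00123), with later values at least 1.83-fold above those of 5 min with ActD, where Lum was undetected at 5 min, and a difference of 0.09 without ActD. Both ActD arrays of 5 min, and no other array, fell below 5.77. For Col4a4 the term was -0.85 ± 0.22 (adjusted p = 0.0238), and both ActD arrays of 5 min (5.75 and 6.07) lay above the other 10. Over all probes tested 9.3% had a called term.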

How the results depend on the processing

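No paired analysis was possible because all 12 arrays carry replicate number 3, which leaves no number to block on. The fit itself compared harvests within treatments. Over 923 values of named genes (50 results, 20 alternatives), 906 stayed on their side of the threshold, 8 became called and 9 lost their call. Of the results called in the main fit, 0 changed direction. Direction was not compared for results not called there. The members called for harvest by ActD numbered 2. There were 6 after median scaling without background correction. That scaling moved the median of all probes from -0.05 to 0.14 and called 2201 probes against 1097. There were 0 with detection required on all 12 arrays, which neither Lum (10 arrays) nor Col4a4 (9 arrays) met, so they were not tested, and 1 with no filter. Without a variance trend 672 probes were called. The co-regulated members at 5 min were 1, but 2 at a z-fold threshold of 1.3 (Adamts1 and Timp1) and 0 on neqc values. The cause was not tested. Leaving out each array in turn gave 24 to 29 members for later harvests against 5 min, 7 to 9 for 60 against 30 min, 1 to 3 for harvest by ActD, 0 to 2 for the ActD effect (2 without Block+ActD at 30 min) and 0 to 0 for the other comparisons. The harvest by ActD count was 1 without Block, Block+ActD or Activity at 5 min, or Activity at 60 min. The harvest difference of Lum was 0.51 without Block+ActD of 5 min (adjusted p = 0.0658) and 0.51 without Activity+ActD of 5 min (adjusted p = 0.0702). Timp1 at 60 against 30 min was -0.27 after median scaling (adjusted p = 0.147), and Timp2 by harvest 0.27 on equal totals (adjusted p = 0.0474). Signal near background limits Col6a1, Col1a1, Col3a1, Col5a3 and Mmp3 at the later harvests.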
